A study of Homo sapiens with 12 samples.

Results

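HCT116, a human line from a colon cancer, and MDA-MB-231, a human line from a breast cancer, were compared in their control state across all genes that passed a level filter. The comparison rested on 4 of the 12 RNA sequencing libraries of the study, 2 of each line, all labelled with the treatment IgG, that is, a control antibody without H2O2. The other 8 libraries came from the same lines under IgG with 100 µM H2O2 for 8 h, or under an antibody named anti-Hsp60N with the same H2O2. They also count in the level filter and in the spread that the test uses. Below, the line difference is set beside that in treated cells. HCT116 grew in McCoy 5a medium and MDA-MB-231 in DMEM, each with 10% fetal bovine serum, so line and medium cannot be told apart. No label says whether the 2 libraries of a group were grown apart. The p-values measure the spread between libraries of the same group, pooled over all 6 groups, which may be technical. A difference between the lines is a difference between these 2 cultures, not between colon and breast cancer.

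The values were TPM, a level scaled to gene length and to a fixed total per library, so levels can be set beside each other across genes. Of 23686 gene symbols, 13956 had at least 1 TPM in at least 2 of the 12 libraries and were tested. Fold changes are differences of log2(TPM + 1), HCT116 minus MDA-MB-231, and understate the change of genes with low values. Where a gene is given with pairs of TPM, the HCT116 libraries (replicates 1 and 2) come before "against" and the MDA-MB-231 libraries after it. AQPEP, ARMC12 and BGLAP lay just inside the filter, with a second-highest value of 1 TPM. ARMC2 and BACH2 were among those just outside it, at 0.99 TPM. TPM keeps no read depth, so no counting interval could be given, and a gene at 0 is described as listed at 0. Its log2 difference depends on the pseudocount of 1 and is no fold.

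As background, epithelial cells are held together by E-cadherin, tight junctions and desmosomes on a keratin skeleton, and mesenchymal cells use vimentin, other cadherins and a secreted matrix. MDA-MB-231 is widely used as a mesenchymal-like, hormone receptor negative breast cancer line. HCT116 is widely used as a colon cancer line with an activating CTNNB1 mutation. Sequence variants were not examined here.

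The 4 libraries were alike in shape. Between 12411 and 12518 genes reached 1 TPM, and 6.53% to 7.49% of a library's TPM went to its 10 highest genes. Across genes, the libraries of 1 line correlated at 0.994 (HCT116) and 0.996 (MDA-MB-231), and libraries of different lines at 0.787 to 0.792, on log2(TPM + 1). The median gene differed between replicates by 0.099 (HCT116) and 0.094 (MDA-MB-231) on the log2 scale. The median fold change over all genes tested was 0.11, and -0.009 under median-of-ratios scaling, a shift of over 0.1 against which small changes should be read.

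The lines differed at most genes. By limma's moderated test with Benjamini-Hochberg adjustment, 11557 of 13956 genes (82.8%) were called at an adjusted p under 0.05, 6348 (45.5%) higher in HCT116 and 5209 (37.3%) lower. Since most genes pass that rule, the lists below are read by a stricter one that also asks for a fold change of at least 4-fold, a log2 of at least 2 in size. That rule called 1689 genes (12.1%), 753 (5.4%) higher and 936 (6.71%) lower in HCT116. Of these, 119 and 270 were listed at 0 in both libraries of the lower line. They are counted by their difference of log2(TPM + 1), here and in the lists, and their fold is not known. Further out, 24 genes were higher and 65 lower by a log2 of at least 6. The libraries of the lines did not overlap at 12512 genes (89.7%), so a lack of overlap is the rule here and not a mark of a gene. At the extreme, 199 genes with a mean of at least 5 TPM in MDA-MB-231 were listed at 0 in both HCT116 libraries, and 97 genes the other way round.

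**Figure D1:**
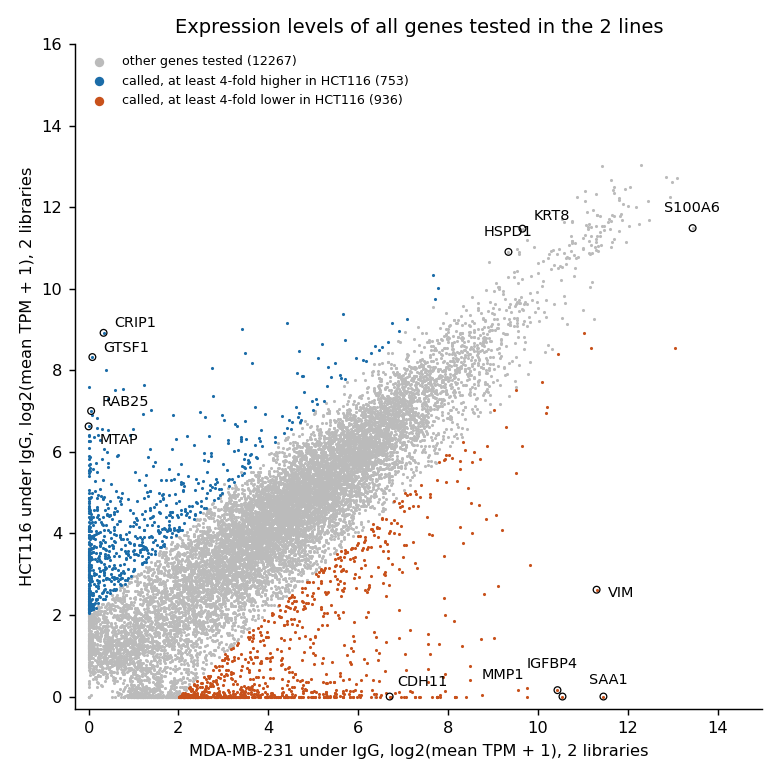
Each point is 1 of 13956 genes, placed by log2 of its mean TPM plus 1 in the 2 MDA-MB-231 libraries (x axis) and the 2 HCT116 libraries (y axis) under IgG, with 753 genes called at least 4-fold higher and 936 called at least 4-fold lower in HCT116 in colour. The named genes are ringed: CRIP1, GTSF1, RAB25 and MTAP lie along the left edge, and SAA1, IGFBP4, MMP1 and CDH11 along the lower one.

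The genes with the largest differences included several of known function. CRIP1, which encodes a small LIM domain protein, stood at 496 and 469.6 against 0.52 and 0 TPM. GTSF1, a germline factor of the piRNA pathway, stood at 328 and 311 against 0.12 and 0. S100A14, a calcium-binding protein of epithelia, was 193 and 174 against 0.68 and 0.31. In these 3 genes both MDA-MB-231 libraries were below 1 TPM. IGFBP2, a binding protein of insulin-like growth factors, was 151 and 162 against 0.42 and 0.29, and the neurotensin receptor gene NTSR1 109 and 116 against 0.19 and 0.07. The homeobox gene MSX1 (86.2 and 79.9 against 0 and 0), the neuropeptide gene NPW (84.5 and 82.8 against 0 and 0) and the kallikrein gene KLK6 (72.5 and 78.1 against 0 and 0) were listed at 0 in MDA-MB-231.

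Among the genes lowest in HCT116 were several secreted products. SAA1, an acute phase apolipoprotein, stood at 0 and 0 against 2871 and 2762 TPM, and its near-identical relative SAA2 at 0.24 and 0 against 761 and 756. IGFBP4 was 0 and 0 against 1471 and 1523, and IGFBP7 was 0 and 0 against 282 and 298. MMP1, the interstitial collagenase, was 0.23 and 0 against 1356 and 1415, and CST1, a secreted inhibitor of cysteine proteases, 0 and 0 against 906 and 821. For these 6 genes each HCT116 library was at 0 or below 1 TPM, while the genes were abundant in both MDA-MB-231 libraries. G0S2, an inhibitor of lipolysis, was 0 and 0 against 322 and 352. C15orf48 was 0.15 and 0.49 against 373 and 339, and the G protein subunit gene GNG11 0 and 0 against 220.2 and 232. SPANXB1, SPANXB2 and SPANXF1 carried the same value in every library (0 and 0 against 284 and 283) and cannot be told apart as copies.

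**Figure D2:**
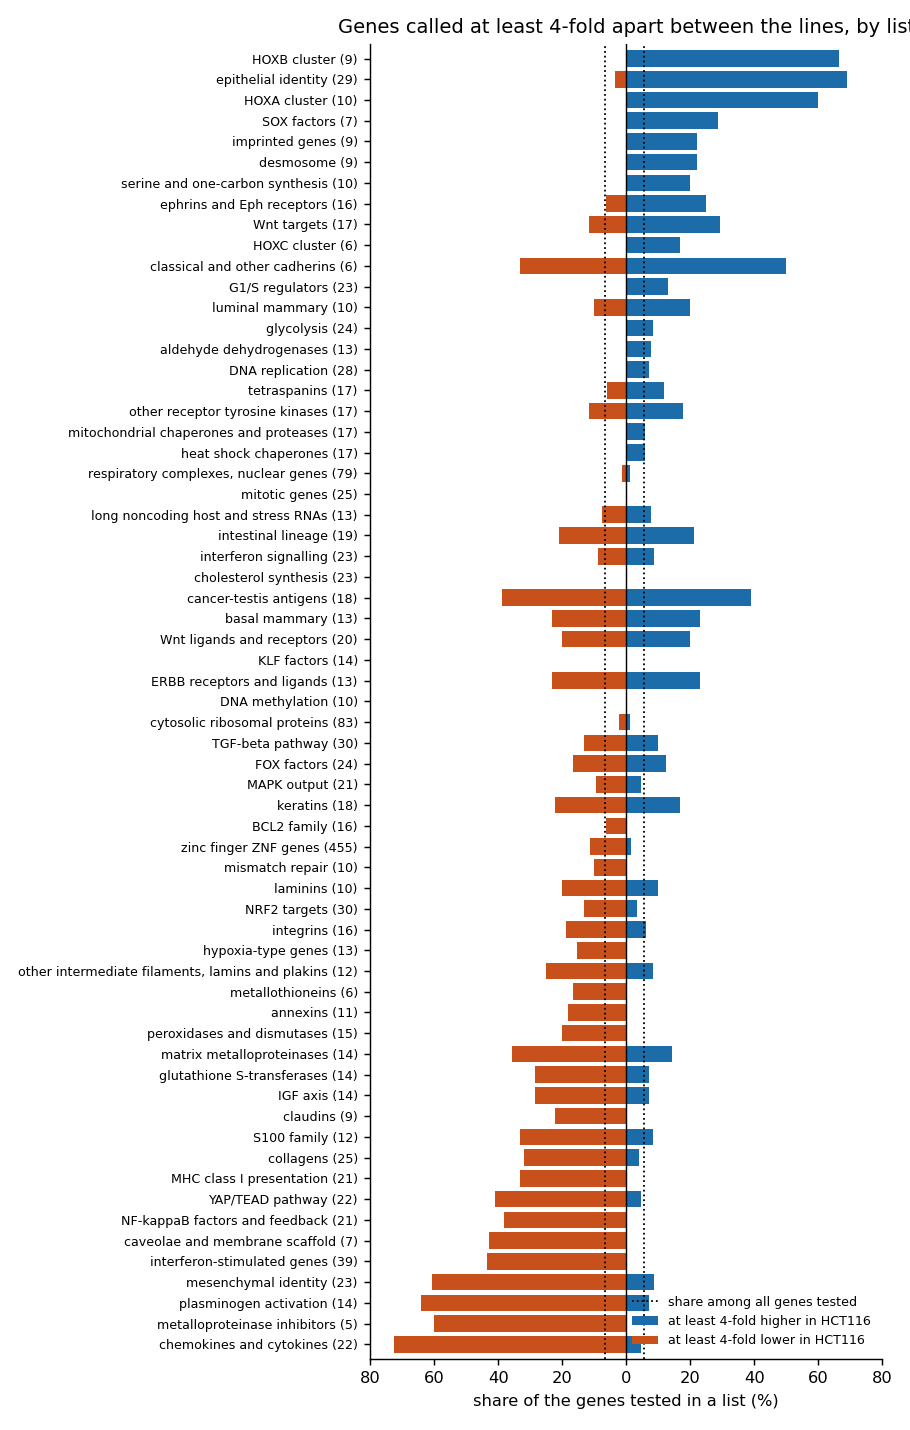
Bars give, for gene lists with at least 5 genes tested (number in brackets), the share of their genes called at least 4-fold higher (to the right) or lower (to the left) in HCT116 under IgG, in percent of the genes tested. Dotted lines mark the shares among all genes, 5.4% and 6.71%: the epithelial, HOXB and HOXA lists reach furthest to the right, and chemokines and cytokines, plasminogen activation and mesenchymal identity furthest to the left.

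Epithelial genes were higher in HCT116 and mesenchymal genes higher in MDA-MB-231. Of 29 epithelial genes tested of 30 listed, 26 were higher and 2 lower in HCT116, 20 and 1 of them by at least 4-fold. Their median log2 fold change was 3.19. RAB25, a small GTPase of epithelial membrane recycling, stood at 122 and 132 against 0.08 and 0 TPM (log2 fold change 6.94 ± 0.08 (SE), limma adjusted p = 5.22e-14). ESRP1, which directs epithelial splicing, was 84.5 and 78.3 against 0.12 and 0.05, and CDH1, which encodes E-cadherin, 27.9 and 25.6 against 0.61 and 0.65. Both MDA-MB-231 libraries were below 1 TPM for these 3 genes. ST14, the membrane protease matriptase, was 114 and 122 against 2.35 and 3.03, and LSR, a protein of tricellular junctions, 226 and 232 against 24.8 and 27.9. EPCAM, an epithelial surface adhesion protein, was 370.1 and 332 against 24 and 25.3, so a lower level remained in MDA-MB-231.

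Some members departed from this pattern. The epithelial transcription factor EHF was lower in HCT116 (25.4 and 23.6 against 63.4 and 71.7). AP1M2, a sorting adaptor of epithelia, was 76.5 and 83.5 against 42.8 and 36.3, short of 4-fold. SPINT2, a protease inhibitor, was called higher by a log2 of 0.12 (288 and 306 against 279.6 and 267), a call that was lost without MDA-MB-231 replicate 2 (0.08) or HCT116 replicate 2 (0.07), and with a turned sign under median-of-ratios scaling (-0.0156). GRHL2, a factor that maintains epithelial genes, was 9.38 and 10.8 against 0 and 0, whereas its relative GRHL3 was below 1 TPM in all 4 libraries and was not called.

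The mesenchymal list ran the other way. Of 23 genes tested of 30, 3 were higher and 20 lower in HCT116, 2 and 14 of them by at least 4-fold, with a median of -2.65. VIM, which encodes vimentin, was 5.23 and 5.06 against 2518 and 2551 TPM (log2 fold change -8.69 ± 0.05 (SE), limma adjusted p = 2.93e-16). TIMP3, a matrix-bound protease inhibitor, was 0.53 and 0.67 against 177 and 199, and TGFBI, a matrix adaptor, 0.07 and 0.08 against 118 and 119. CDH11, a mesenchymal cadherin, was 0 and 0 against 95.9 and 110.2, and FN1, which encodes fibronectin, 3.36 and 3.3 against 109 and 131. Both HCT116 libraries were far below both MDA-MB-231 libraries at these genes.

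The transcription factors that repress E-cadherin did not all follow. ZEB1 was 2.43 and 2.41 against 19.4 and 21.7 and ZEB2 0 and 0 against 2.55 and 3.29. SNAI2 was 0.3 and 0.28 against 25.5 and 31.2, but its relative SNAI1 was at least 4-fold higher in HCT116 (13.5 and 19.4 against 2.75 and 2.7). FSCN1, the actin bundler fascin, was also higher in HCT116 (275 and 306 against 41.6 and 46.2). TWIST1 (1.05 and 0.36 against 0 and 0) and CDH2, which encodes N-cadherin (0 and 0 against 0.45 and 0.51), did not pass the filter.

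**Figure D3:**
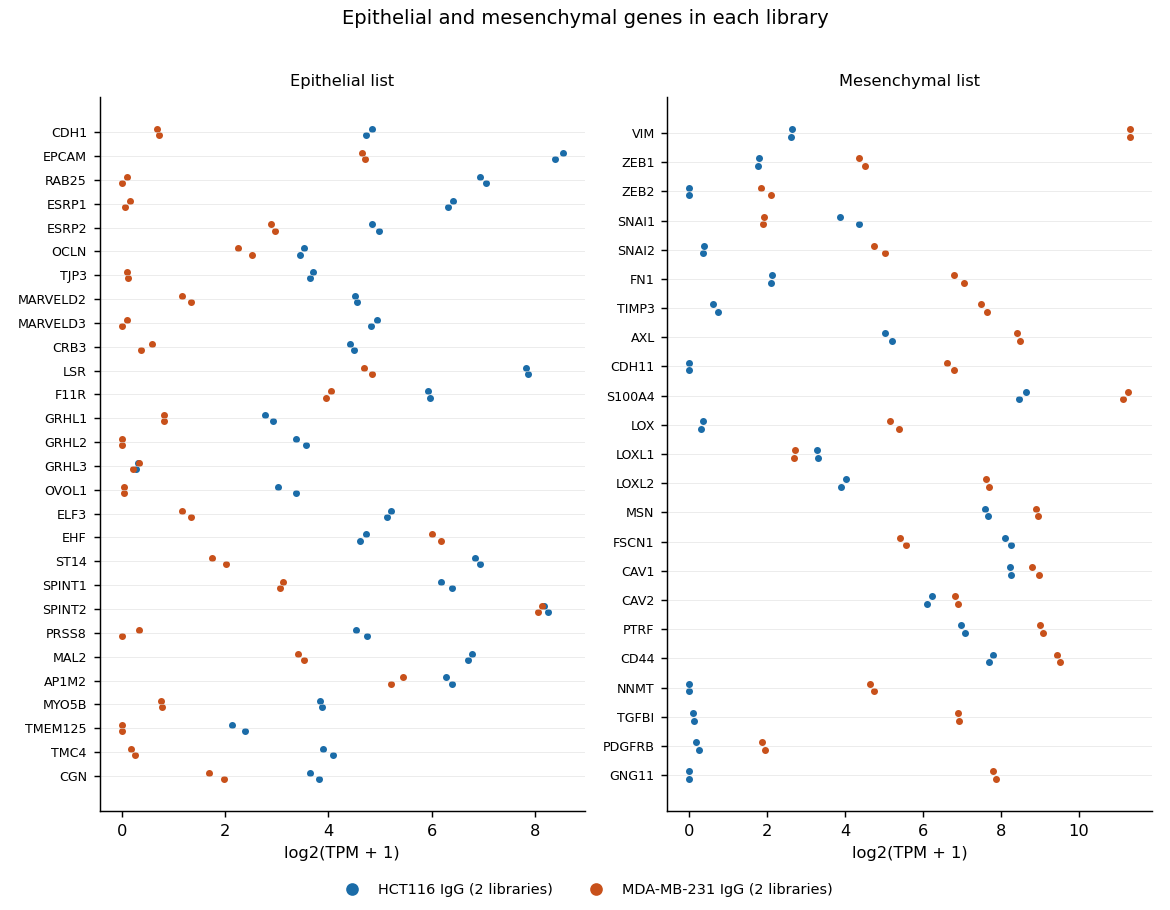
Points are the 2 libraries of each line under IgG, on a log2(TPM + 1) axis, for 28 of the 29 epithelial and for the 23 mesenchymal genes tested, 1 gene per row. Most epithelial genes have HCT116 to the right, with EHF reversed, and most mesenchymal genes have MDA-MB-231 to the right, with SNAI1, FSCN1 and LOXL1 reversed.

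ZEB and SNAI proteins bind the E-box CAGGTG, which is CACCTG on the other strand. The 250 bases before the start of each gene in the RefSeq table (GRCh38.p14) were searched for both spellings. Of the 29 epithelial genes tested, 16 had a window, and 8 of these (50%) held the motif. Of the mesenchymal genes tested, 16 had a window, and 3 of these (18.8%) held the motif. It stood in 153 of 518 windows of genes called at least 4-fold higher in HCT116 (29.5%) and in 88 of 686 of genes called at least 4-fold lower (12.8%). Among all genes tested the share was 16.1% of 10837 windows. A match is a description of the letters and not of binding. In the epithelial list, RAB25, CRB3, ELF3, MYO5B and TMC4 held the motif and were at least 4-fold higher in HCT116. OCLN, AP1M2 and GRHL3 held the motif but were not. TJP3, MARVELD2, LSR, GRHL1, SPINT1 and TMEM125 had windows without the motif and were also at least 4-fold higher. Of the mesenchymal genes, ZEB1, AXL and S100A4 held the motif. CDH1, ESRP1 and EPCAM had no window. The 3 windows below belong to RAB25 and CRB3, epithelial genes with the motif (capitals), and to TIMP3, a mesenchymal gene without it, each 5′ to 3′ on the strand of its gene.
RAB25 (chr1:156060910-156061159, plus strand): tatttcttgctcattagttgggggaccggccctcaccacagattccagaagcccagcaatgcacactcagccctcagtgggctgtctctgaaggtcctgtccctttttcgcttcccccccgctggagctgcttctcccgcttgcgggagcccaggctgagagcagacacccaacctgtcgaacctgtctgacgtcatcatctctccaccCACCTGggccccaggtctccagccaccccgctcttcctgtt
CRB3 (chr19:6464021-6464270, plus strand): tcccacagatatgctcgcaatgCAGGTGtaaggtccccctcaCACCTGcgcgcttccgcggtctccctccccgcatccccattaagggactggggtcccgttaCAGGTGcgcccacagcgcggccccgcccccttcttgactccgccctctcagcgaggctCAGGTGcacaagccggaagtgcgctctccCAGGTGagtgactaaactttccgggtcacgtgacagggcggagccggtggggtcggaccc
TIMP3 (chr22:32801455-32801704, plus strand): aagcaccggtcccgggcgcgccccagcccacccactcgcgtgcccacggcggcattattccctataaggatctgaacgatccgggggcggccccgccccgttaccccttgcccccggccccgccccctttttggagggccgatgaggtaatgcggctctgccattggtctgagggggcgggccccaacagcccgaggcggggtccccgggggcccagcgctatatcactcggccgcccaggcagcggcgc
CRB3, a polarity protein of the apical membrane, held 5 matches and stood at 20.5 and 21.4 against 0.51 and 0.29 TPM, and RAB25 held 1.

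Among cytoskeletal genes, the simple epithelial keratins were abundant in both lines. KRT8 stood at 2749 and 2931 against 802 and 813 TPM, KRT18 at 1253 and 1249.98 against 649.9 and 642 and KRT19 at 1622 and 1574 against 476 and 489. Each was higher in HCT116, though by less than 4-fold. KRT7 (18.3 and 20.5 against 458 and 465) and KRT80 (1.72 and 1.72 against 113 and 126) were higher in MDA-MB-231. So were KRT81 (1.01 and 1.68 against 307 and 328) and KRT86 (0.11 and 0 against 8.12 and 6.04), which are close copies of each other. KRT23 (12.5 and 13 against 0 and 0) and KRT13 (6.29 and 7.43 against 0 and 0) were listed at 0 in MDA-MB-231. Of 18 keratins tested of 55, 11 were higher and 7 lower in HCT116, 3 and 4 of them by at least 4-fold.

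Desmosomes, the junctions that anchor keratins, had 9 genes tested, of which 7 were higher and 0 lower in HCT116, 2 and 0 of them by at least 4-fold. The desmosomal cadherin genes DSC2 (33.2 and 31 against 1.63 and 1.49) and DSC3 (9.31 and 9.1 against 0 and 0), the latter listed at 0 in MDA-MB-231, were the pair past the stricter rule. The plaque gene PKP2 was not called (15 and 14.9 against 12.8 and 14.3). Of 9 claudins tested, which form tight junction strands, 3 were higher and 5 lower in HCT116, 0 and 2 of them by at least 4-fold. CLDN7 was higher in HCT116 (111 and 120.4 against 36.6 and 36), and CLDN1 was lower (0 and 0.03 against 4.75 and 5.34). The lines used different classical cadherins, with CDH1 and CDH3 (74.8 and 80.5 against 0.15 and 0.22) in HCT116 and CDH11 and CDH4 (0.27 and 0.23 against 5.27 and 5.8) in MDA-MB-231.

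Genes of plasminogen activation and clotting, which act on the matrix around a cell, were mostly lower in HCT116. Of 14 tested, 2 were higher and 12 lower in HCT116, 1 and 9 of them by at least 4-fold. PLAU, which encodes urokinase, was 22.4 and 19.4 against 550.01 and 530.3, and its receptor gene PLAUR 59.6 and 58.9 against 262 and 256. The tissue activator PLAT was 4.66 and 4.83 against 445 and 443. Both activators and the receptor were thus higher in the same line. F3, tissue factor, was 26.8 and 24.5 against 345 and 378, and TFPI2, of the family of its inhibitor, 0 and 0 against 121 and 126. SERPINB5, which encodes maspin, was higher in HCT116 (35.4 and 40.4 against 0.15 and 0.07).

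All 5 metalloproteinase inhibitors tested were lower in HCT116, 3 of them at least 4-fold. TIMP1 was 276 and 282 against 805 and 735 and TIMP2 56.8 and 62.2 against 241 and 256. Metalloproteinases themselves went both ways: of 14 tested of 24, 6 were higher and 7 lower in HCT116, 2 and 5 of them by at least 4-fold. MMP14, a membrane-anchored collagenase, was 14.8 and 15.5 against 352 and 382 (log2 fold change -4.51 ± 0.09 (SE), limma adjusted p = 2.21e-12). MMP15, another membrane-anchored member, was higher in HCT116 (37.2 and 41.7 against 5.46 and 6.85). MMP9, a gelatinase, was 0 and 0.1 against 4.83 and 4.52.

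Collagens and laminins differed by chain. Of 25 collagen genes tested of 44, 9 were higher and 13 lower in HCT116, 1 and 8 of them by at least 4-fold. The basement membrane chains COL4A1 (0.02 and 0.03 against 21.3 and 24.7) and COL4A2 (0.02 and 0.05 against 60.5 and 72) were near 0 in HCT116, as was COL5A1 (0 and 0.01 against 44.9 and 50.4). COL9A3 was the collagen gene past 4-fold in the other direction (31.6 and 31.9 against 0.1 and 0.12). COL6A1 was not called (75.3 and 77.8 against 67.3 and 79.9). The laminin chain LAMB3 (25.2 and 25.1 against 400.3 and 429), which joins LAMA3 in a laminin of epithelial basement membranes, was at least 4-fold lower in HCT116. LAMA3 was lower by less (5.53 and 4.99 against 10.1 and 10.5).

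Of 16 integrins tested, 4 were higher and 12 lower in HCT116, 1 and 3 of them by at least 4-fold. ITGA2, a collagen receptor chain, was 11.8 and 11.8 against 65.7 and 81.3, and ITGB2, otherwise a leukocyte chain, 0 and 0.08 against 14.5 and 12.6. ITGB4, the hemidesmosome chain, was higher in HCT116 (116 and 114 against 51.2 and 60.05).

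Lineage genes matched the labels in part. CDX2, a homeobox regulator of intestinal fate, stood at 17.2 and 15.1 against 0 and 0 TPM. HNF4A was 3.04 and 4.37 against 0 and 0.02 and FOXA3 8.3 and 9.04 against 1.33 and 1.24. These 3 endoderm factors were called at least 4-fold higher in HCT116. Many differentiated intestinal genes were at or near 0, and 19 of 38 listed genes passed the filter. VIL1, the microvillus gene villin, was 0.04 and 0 against 0 and 0.07, and CDH17, an intestinal cadherin, 0 and 0.03 against 0.04 and 0.05. CEACAM5, FABP1 and OLFM4 were listed at 0 in all 4 libraries. Other genes of the list were lower in HCT116. FOXA2 was at least 4-fold lower (0.04 and 0.14 against 21.5 and 21.9), and the secretory gene AGR2 was listed at 0 there (0 and 0 against 14.4 and 15.3). The list's median of 0.65 turned to -0.28 when only genes with a mean of at least 5 TPM were tested.

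Breast lineage markers were present in MDA-MB-231 in part. The luminal genes XBP1, a factor of secretory cells (64.3 and 63.7 against 70.3 and 79.2), and MLPH, which encodes melanophilin (31.2 and 32.4 against 55 and 56.8), were expressed in both lines and called lower in HCT116. The call of XBP1 was lost without MDA-MB-231 replicate 2 (-0.13) or HCT116 replicate 2 (-0.21). The summed level of the luminal list was 177 and 181 against 233 and 252 TPM. ESR1, the estrogen receptor gene, was 0 and 0 against 0 and 0.01, and PGR, the progesterone receptor gene, 0 and 0 against 0 and 0.02. These hormone receptor genes were near 0 in both lines, as were the basal genes KRT5 (0.14 and 0.15 against 0 and 0) and TP63 (0.02 and 0 against 0.15 and 0.13). GATA3, a luminal factor, was lower in HCT116 (1.15 and 1.45 against 6.81 and 8.9), and SPDEF, another factor of secretory cells, more so (0.12 and 0.06 against 52.1 and 58.8). ERBB3 (16.4 and 15.8 against 1.99 and 2.86) and TBX3 (7.73 and 7.68 against 0 and 0), also of the luminal list, were higher there. Of 10 luminal genes tested of 18, 5 were higher and 5 lower in HCT116, 2 and 1 of them by at least 4-fold. Their median of 0.13 turned to -0.51 at a mean of at least 5 TPM. Of 13 basal genes tested of 19, 7 were higher and 5 lower in HCT116, 3 and 3 of them by at least 4-fold. CDH3, KLK6 and KLK7 (27.3 and 26.6 against 0 and 0), which the basal list holds, were the ones past the stricter rule with higher values in the colon line.

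HOX genes, which record position along the body axis, separated the lines by cluster. All 10 HOXA genes tested were higher in HCT116, 6 by at least 4-fold, as were all 9 HOXB genes, 6 by at least 4-fold. HOXA9 stood at 77.1 and 74.3 against 0.04 and 0 TPM (log2 fold change 6.23 ± 0.07 (SE), limma adjusted p = 4.85e-14), and HOXA7 at 24.5 and 23.1 against 0 and 0. HOXB7 stood at 58.9 and 58.7 against 0.32 and 0.76 and HOXB8 at 27.5 and 28.7 against 0.23 and 0.05. HOXA3, HOXA5, HOXA7, HOXA10 and HOXA11 were listed at 0 in both MDA-MB-231 libraries, whereas HOXB9 kept 8.2 and 9.25 TPM there against 17.3 and 17.2 in HCT116. The 6 HOXC genes tested were all higher in HCT116 at lower levels, led by HOXC9 (9.89 and 9.01 against 0.11 and 0.2). In the HOXD cluster HOXD1 (0 and 0.06 against 3.97 and 3.69), HOXD3 and HOXD4 (0.79 and 0.77 against 4.38 and 4.34) were lower in HCT116. HOXD8, further along the cluster, was higher (6.34 and 5.16 against 0 and 0).

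**Figure D4:**
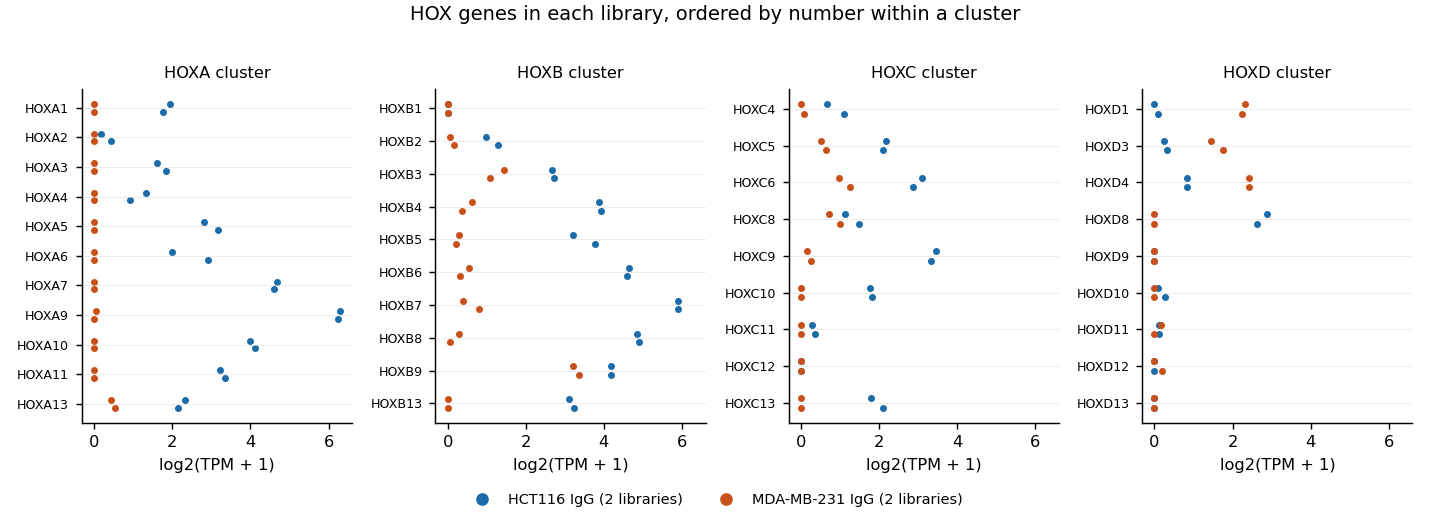
Points are the 2 libraries of each line under IgG on a log2(TPM + 1) axis, 1 HOX gene per row in order of its number, 1 panel per cluster. HCT116 points lie to the right throughout the HOXA and HOXB panels except where both lines are near 0, and HOXD1, HOXD3 and HOXD4 have MDA-MB-231 to the right.

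Wnt signalling acts through beta-catenin, encoded by CTNNB1, to switch on feedback genes. CTNNB1 itself was 210.5 and 226 against 241 and 247 TPM. Of 17 targets tested, 9 were higher and 8 lower in HCT116, 5 and 2 of them by at least 4-fold. The feedback gene AXIN2 was 19.5 and 20.8 against 2.6 and 2.6 (log2 fold change 2.56 ± 0.07 (SE), limma adjusted p = 4.02e-11). RNF43, which removes Wnt receptors, was 48 and 49.99 against 1.59 and 1.83, and NOTUM, a secreted Wnt hydrolase, 10.4 and 9.82 against 0 and 0. NKD1 (3.28 and 3.86 against 0.05 and 0.05) and the factor gene TCF7 (26.7 and 29.9 against 2.45 and 1.82) were also at least 4-fold higher in HCT116. LGR5, an intestinal stem cell gene of the same list, did not pass the filter (0.04 and 0 against 0.44 and 0.76). DKK1, a secreted inhibitor, was lower in HCT116 (76.3 and 72.6 against 311 and 332). Ligands differed by member, with WNT16 (60.02 and 55.3 against 0.03 and 0) in HCT116 and WNT5B (0.34 and 0.11 against 25.6 and 27.4) in MDA-MB-231. The receptor ROR2 was 13.1 and 15.1 against 0 and 0.11 and its relative ROR1 1.23 and 1.35 against 19.1 and 22.7.

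Inflammatory and interferon-linked genes were mostly higher in MDA-MB-231. Of 22 chemokine and cytokine genes tested, 3 were higher and 19 lower in HCT116, 1 and 16 of them by at least 4-fold, with a median of -4.05. CXCL1, a neutrophil chemokine, was 0.39 and 0.98 against 347 and 372 TPM (log2 fold change -7.76 ± 0.18 (SE), limma adjusted p = 9.18e-12), and IL8, another, 0.45 and 0.49 against 234 and 256. The colony-stimulating factors CSF1 and CSF2 were 2.85 and 3.12 against 234 and 254 and 0 and 0.18 against 244 and 242. IL6 was 0 and 0 against 131 and 127 and IL1B 0 and 0 against 62 and 61.5. In these 6 genes both HCT116 libraries were below 4 TPM. CXCL16 went the other way (52.6 and 54 against 5.7 and 4.92), and LIF (46.4 and 53.7 against 32.4 and 34.3) and IL18 (68.3 and 55 against 35.8 and 38.5) were higher in HCT116 by less than 4-fold.

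The feedback genes of NF-kappaB, a factor that drives many cytokine genes, were lower in HCT116 too. Of 21 genes, 3 were higher and 18 lower in HCT116, 0 and 8 of them by at least 4-fold. NFKBIA, the inhibitor it induces, was 35.8 and 39.5 against 243 and 249. BIRC3 was 1.21 and 1.11 against 56.8 and 59 and TNFAIP3 1.7 and 1.83 against 14 and 15.1. Some subunit genes were closer, with RELA at 75.7 and 78.5 against 97.2 and 108 and NFKB1 at 30.8 and 31.5 against 33.9 and 36.9. RELB was lower by more (8.75 and 9.5 against 24.3 and 24.6), and REL was higher in HCT116 (3.52 and 3.3 against 1.27 and 1.41).

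Of 39 interferon-stimulated genes tested, 6 were higher and 31 lower in HCT116, 0 and 17 of them by at least 4-fold, with a median of -1.72. IFIT3 was 1.9 and 1.87 against 182 and 195 (log2 fold change -6.04 ± 0.06 (SE), limma adjusted p = 1.26e-14), and IFI27 1.46 and 0.69 against 207 and 176. BST2, which tethers budding virus, was 2.83 and 2.41 against 300.5 and 262, and IFI16, a DNA sensor, 0 and 0.08 against 81 and 86.9. The guanylate-binding protein gene GBP1 was 0 and 0 against 42.3 and 46.7. The list was not uniform: OAS3 (23.3 and 25.9 against 8.43 and 9.05) and USP18 (7.62 and 8.81 against 2.67 and 2.56) were higher in HCT116, and IFITM3 was not called (653 and 748 against 775 and 757), though it was called lower under median-of-ratios scaling or without HCT116 replicate 2.

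Upstream, the kinase gene JAK1 was 46.2 and 43.7 against 62.5 and 67.4. MB21D1, which encodes the DNA sensor cGAS, was 0 and 0 against 48.5 and 50.3.

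Antigen presentation genes were mostly lower in HCT116 as well. Of 21 class I genes tested, 1 was higher and 20 lower in HCT116, 0 and 7 of them by at least 4-fold. B2M, the light chain of class I molecules, stood at 504 and 458 against 2048 and 2097 (log2 fold change -2.11 ± 0.06 (SE), limma adjusted p = 4.04e-11), and HLA-B at 121 and 127 against 1151 and 1164. PSMB8, an immunoproteasome subunit, was 0.31 and 0.23 against 191 and 184. HLA-C differed less (306 and 316 against 402 and 424). HLA genes share sequence and vary between genomes, so their values depend on how reads were assigned. CD74, the class II invariant chain, was 0.3 and 0 against 875 and 862. Outside the lists, and chosen after their values were seen, the class II chain gene HLA-DRA stood at 2.03 and 1.36 against 530.2 and 510.02 and CIITA, the class II regulator, at 0 and 0.05 against 6.36 and 7.69.

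**Figure D5:**
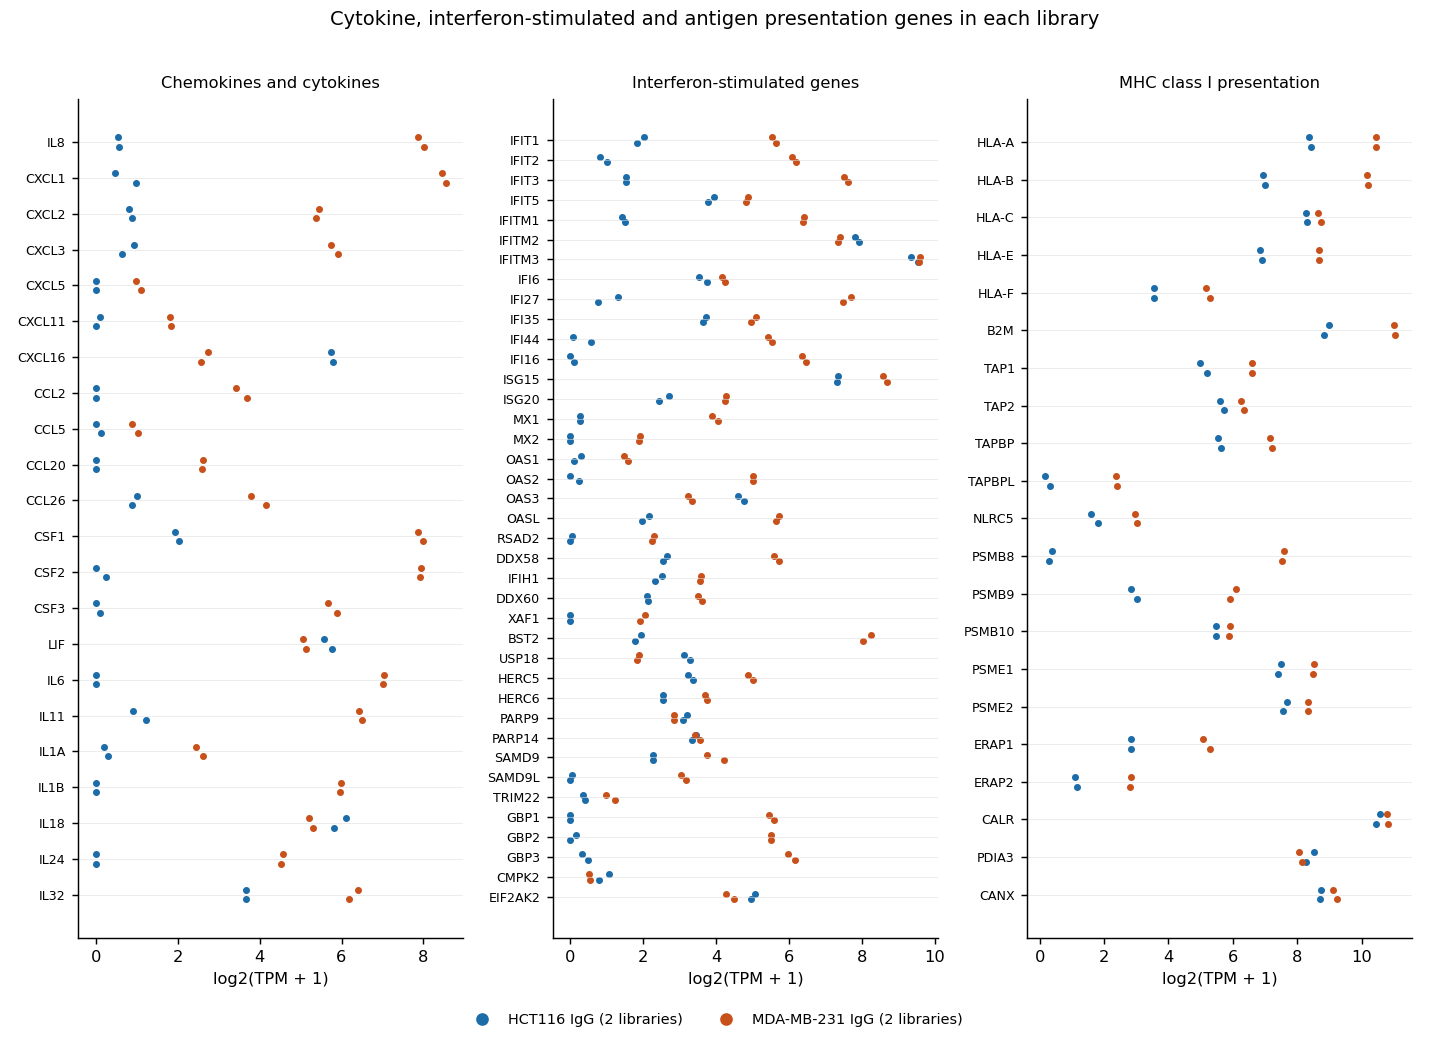
Points are the 2 libraries of each line under IgG on a log2(TPM + 1) axis for the genes tested in 3 lists, 22 chemokines and cytokines, 39 interferon-stimulated genes and 21 class I presentation genes, 1 gene per row. MDA-MB-231 lies to the right in most rows, and CXCL16, OAS3 and USP18 are among the rows where HCT116 does.

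Growth factor pathways differed by ligand and feedback gene. The ERBB ligands split: AREG (449 and 376 against 94.3 and 106) and EREG (359 and 321 against 9.27 and 11.2) were higher in HCT116, and NRG1 (0.78 and 0.97 against 78.2 and 93.4) and HBEGF (6.89 and 7.8 against 93.2 and 98.3) lower. EGFR, a receptor of several ERBB ligands, was 26.3 and 27.2 against 39.9 and 52.1, and ERBB2 was 43.3 and 48 against 31.6 and 33.1. These were called lower and higher in HCT116, each by less than 4-fold. Among other receptor kinases, FGFR4 (38.1 and 50.7 against 1.18 and 0.94) and FGFR2 (10.4 and 9.22 against 0 and 0) were higher in HCT116. AXL, a kinase common in mesenchymal cells, was lower (31.7 and 35.8 against 336 and 357). The MAPK feedback gene SPRY2 was lower in HCT116 (6.41 and 5.46 against 89.9 and 97.3), and the early gene EGR1 was higher (38 and 35.1 against 4.3 and 4.5). Of 16 ephrins and Eph receptors tested, 11 were higher and 5 lower in HCT116, 4 and 1 of them by at least 4-fold, with EPHA1 at 12.1 and 12.4 against 0.02 and 0.03 and EFNA3 at 32.9 and 30.4 against 1.45 and 1.73.

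In the YAP/TEAD pathway, which responds to cell shape and contact, several target genes differed more than the factors. Of 22 genes, 4 were higher and 16 lower in HCT116, 1 and 9 of them by at least 4-fold. YAP1 was 67.7 and 67.1 against 92 and 94.3, and WWTR1, its relative, was not called (28.7 and 28 against 28.5 and 32.3), though it was called lower under median-of-ratios scaling or without MDA-MB-231 replicate 1. The target CYR61 was 7.56 and 9.06 against 897 and 921 (log2 fold change -6.62 ± 0.07 (SE), limma adjusted p = 2.34e-14), and CTGF was 1.26 and 0.85 against 125 and 138. ANKRD1, also a target, was 0 and 0.06 against 425 and 436. NF2, an upstream inhibitor of YAP, was at least 4-fold higher in HCT116 (37.4 and 37.5 against 3.1 and 3.21).

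Of 30 genes of the TGF-beta pathway, 11 were higher and 18 lower in HCT116, 3 and 4 of them by at least 4-fold. The ligand TGFB2 was 0.07 and 0.11 against 46.2 and 52.8, and the receptor TGFBR2 17.7 and 18.4 against 111 and 121. ID2, an inhibitor of differentiation that BMP induces, was 67.8 and 64.4 against 1.59 and 1.59. LTBP3, which stores latent ligand, was 66.6 and 71.7 against 12.7 and 14.3.

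GDF15, a stress cytokine, was 141 and 109 against 4.57 and 4.58 (log2 fold change 4.49 ± 0.11 (SE), limma adjusted p = 1.31e-11). BTG2, a brake on proliferation, was 19.98 and 21.9 against 0.33 and 0.32, and FDXR, a mitochondrial reductase, 90.9 and 104 against 8.78 and 8.97. MDM2, a ubiquitin ligase, was 53.2 and 56.2 against 16.4 and 16.7, and CDKN1A, which encodes the cyclin-dependent kinase inhibitor p21, 186 and 195 against 122 and 127. PLK2 was at least 4-fold lower (53.9 and 52 against 213 and 233).

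CDKN2A, which encodes the cell cycle inhibitor p16, was 56.4 and 55 against 0 and 0 TPM, and genes beside it differed with it. In the gene order of RefSeq, FOCAD, KLHL9, MTAP and CDKN2A formed a run of 4 consecutive tested genes past the stricter rule, all higher in HCT116. MTAP, an enzyme of methionine salvage, was 98.7 and 96.7 against 0 and 0. FOCAD was 16.4 and 18.1 against 0.92 and 0.84 and KLHL9 16 and 17.2 against 0.02 and 0. CDKN2B, next to CDKN2A, was 2.78 and 2.53 against 0 and 0, called higher but short of the stricter rule. The genes after it went both ways. TUSC1 was 0 and 0 against 7.45 and 9.6 and CAAP1 19.6 and 18.2 against 20.6 and 23.7, both called lower, PLAA was not called (36.2 and 35 against 32.8 and 34.3), and IFT74 was called higher (19.8 and 17.6 against 11.1 and 11.1). The call of CAAP1 was lost without MDA-MB-231 replicate 2 (-0.12) or HCT116 replicate 2 (-0.17). Of the other G1/S genes, E2F2 was 18.9 and 22.8 against 2.58 and 2.36, and CCND3 was lower in HCT116 (46 and 52.7 against 195 and 195).

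Of the mismatch repair genes, PMS2 was higher in HCT116 (36.1 and 36.7 against 9.8 and 12.7), and MSH6 was not called (51.5 and 49.8 against 47.5 and 52.2). MSH3 was lower (2.48 and 2.43 against 9.62 and 10.6). Of 28 DNA replication genes, 26 were higher and 0 lower in HCT116, 2 and 0 of them by at least 4-fold, with a median of 0.84. MCM5, a helicase subunit, was 209 and 231 against 50.3 and 52.5, and CDT1, a licensing factor, 106 and 103 against 24.1 and 25.9. Of 25 mitotic genes, 9 were higher and 11 lower in HCT116, 0 and 0 of them by at least 4-fold. AURKA, a spindle kinase, was 137 and 136 against 330.3 and 334 and PLK1, another, 275 and 284 against 172 and 176.

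The chaperones included the gene of the protein that the antibody is named for. HSPD1, which encodes the mitochondrial chaperonin Hsp60, stood at 1965 and 1861 against 633 and 666 TPM (log2 fold change 1.56 ± 0.05 (SE), limma adjusted p = 9.83e-11). Its co-chaperonin gene HSPE1 stood at 869 and 722 against 419.7 and 398. Both were higher in both HCT116 libraries than in either MDA-MB-231 library, and the lines likewise did not overlap at 89.7% of all genes tested. Of 17 mitochondrial chaperone and protease genes, 14 were higher and 1 lower in HCT116, 1 and 0 of them by at least 4-fold. TRAP1, a mitochondrial HSP90 relative, was 343 and 348 against 75 and 78.2, and the protease HTRA2 was the lower one (25.9 and 27.6 against 36 and 35.9). Of 17 heat shock genes, 13 were higher and 3 lower in HCT116, 1 and 0 of them by at least 4-fold. HSP90AA1 was 3513 and 3232 against 1439 and 1545 and HSPA8 5155 and 5077 against 2449.9 and 2588. HSPA1B (1277 and 1326 against 193 and 213) and HSPA1A (45.2 and 39.9 against 107 and 116) went opposite ways, but they are near-identical copies between which reads can be split, and both values are uncertain.

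Antioxidant genes matter for the H2O2 used in the rest of the study. The dismutase gene SOD2 was not called (125 and 129 against 130.4 and 136, log2 fold change -0.07 ± 0.06 (SE), limma adjusted p = 0.324), though it was called lower in HCT116 under median-of-ratios scaling. GPX1 (444 and 454 against 425 and 463) and PRDX2 (474 and 476 against 475 and 451), which remove H2O2, were not called either, though PRDX2 was called higher under quantile normalization (0.13). GPX3, a secreted peroxidase, was 0.12 and 0.07 against 147 and 137, and SOD3, a secreted dismutase, 0 and 0 against 11.8 and 13.9. Of 30 NRF2 targets, 16 were higher and 11 lower in HCT116, 1 and 4 of them by at least 4-fold. NQO1 was 436 and 421 against 230.4 and 232, and GCLC, which limits glutathione synthesis, 59 and 55.1 against 16.8 and 15.8. The reductase gene CBR1 was listed at 0 in HCT116 (0 and 0 against 158 and 166), and AKR1C3 was at least 4-fold lower (0.67 and 0.41 against 93 and 98).

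Glutathione transferases differed by member. Of 14 tested, 2 were higher and 10 lower in HCT116, 1 and 4 of them by at least 4-fold. GSTM1 (0 and 0 against 57.2 and 58.6) and GSTM3 (0 and 0 against 37.6 and 37.8) were listed at 0 in HCT116. GSTO2 was 119.96 and 123 against 1.16 and 1.45, and the abundant GSTP1 was 917 and 1045 against 528 and 512. ALDH1A3, a retinaldehyde dehydrogenase, was 231 and 233 against 25.1 and 27.1.

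Metabolic genes showed single large gaps. SLC16A1, the lactate transporter MCT1, was 93.7 and 92 against 0.18 and 0.29 (log2 fold change 6.25 ± 0.13 (SE), limma adjusted p = 3.45e-12), whereas its relative SLC16A3 was 496 and 527 against 421 and 441. Of 10 genes of serine and one-carbon synthesis tested, 9 were higher and 1 lower in HCT116, 2 and 0 of them by at least 4-fold. MTHFD2, a mitochondrial folate enzyme, was 317 and 308 against 33 and 33.5, and PHGDH, which starts serine synthesis, 120.4 and 123 against 14.2 and 14.1. Of 23 genes of cholesterol synthesis, 11 were higher and 11 lower in HCT116, 0 and 0 of them by at least 4-fold.

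Nuclear genes of the respiratory complexes had a median of 0.001 over 79 genes and cytosolic ribosomal proteins a median of 0.03 over 83, and neither sign held. Under median-of-ratios scaling the medians were -0.13 and -0.11, and without MDA-MB-231 replicate 2 they were -0.02 and -0.02. The respiratory list was at -0.04 without HCT116 replicate 1, and the ribosomal list at -0.06 under quantile normalization. NDUFB9 (619 and 610.01 against 134 and 136) and the testis form COX7B2 (0 and 0 against 5.48 and 2.52) were the genes of the respiratory list past the stricter rule. RPL21, a ribosomal gene that every cell needs, was listed at 0 in HCT116 (0 and 0 against 72.2 and 43.4), so a 0 in this table need not mean an absent transcript.

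Some hypoxia-linked and glycolytic genes differed between the HCT116 libraries. NDRG1 was 172 and 120.3 against 86.1 and 91.9, BNIP3 66.8 and 44.3 against 234 and 249.7 and ALDOC 63.8 and 48.2 against 10.5 and 9.38. The HCT116 replicates stood further apart there than at the median gene. The lines did not overlap at these genes, as at 89.7% of all genes tested. VEGFA was at least 4-fold lower in HCT116 (30.6 and 26.7 against 161 and 170.2).

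Cancer-testis antigens, germline genes that tumours often express, were split between the lines. Of 18 tested of 89 listed, 8 were higher and 10 lower in HCT116, 7 and 7 of them by at least 4-fold. MAGEB2 (190.3 and 183 against 0.73 and 0.69), MAGEA3 (188 and 206 against 1.47 and 1.2) and PRAME (46.4 and 45.5 against 0 and 0) were higher in HCT116. MAGEC2 (0 and 0 against 6.69 and 7.25) and PAGE5 (0 and 0 against 10.6 and 7.88) were listed at 0 there. XAGE1A to XAGE1E carried 1 identical value per library (0 and 0 against 219 and 210.2) and make up 5 of the genes counted as lower. MAGEA6 (2.13 and 1.91 against 6.21 and 6.51) is a near-identical copy of MAGEA3, so neither value is certain. Among imprinted genes, PLAGL1 was 23.2 and 23.8 against 0 and 0 and H19 4.53 and 6.02 against 0.25 and 0.08.

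Calcium-binding S100 proteins were mostly higher in MDA-MB-231. Of 12 tested, 2 were higher and 10 lower in HCT116, 1 and 4 of them by at least 4-fold. S100A6 was 2948 and 2787 against 11512 and 10799 and S100A4 394 and 348 against 2431 and 2237. Transcription factor families were split by member. SOX4 (26.1 and 23.1 against 3.93 and 3.87) and FOXD1 (17.6 and 16.4 against 0 and 0.04) were higher in HCT116. FOXQ1 (0.5 and 0.45 against 22.7 and 23.9), FOXF2 (0 and 0 against 13.9 and 15.4) and FOXP1 (0.66 and 0.74 against 17.8 and 19.2) were lower. Of 455 zinc finger genes named ZNF that were tested, 168 were higher and 193 lower in HCT116, 7 and 51 of them by at least 4-fold. Their share at 4-fold in either direction was 12.7%, against 12.1% of all genes tested. Their median of -0.062 turned to 0.135 at a mean of at least 5 TPM.

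Several defining markers of other cell types were at or near 0 in both lines. The pan-leukocyte gene PTPRC was 0 and 0 against 0 and 0.04, the T cell gene CD3E 0 and 0 against 0 and 0 and the B cell gene MS4A1 0 and 0 against 0 and 0. Of 12 leukocyte markers 4 were tested and all were lower in HCT116, led by the lysosomal CD68 (20.3 and 20.3 against 185 and 183). The summed list stood at 21.6 and 22 against 194 and 195 TPM. Endothelial VWF was 0.03 and 0.12 against 0.06 and 0.03 and CDH5 0 and 0 against 0.11 and 0.02. ROBO4 (0.05 and 0.03 against 35.8 and 36.6) and ESAM (8.14 and 9.36 against 149.8 and 154), of the same list, were at least 4-fold lower in HCT116. The endothelial list summed to 8.58 and 9.97 against 191 and 196 TPM and the fibroblast list to 6.03 and 8.31 against 9.22 and 10.5 TPM. DCN, a fibroblast proteoglycan gene, was 0 and 0 against 0 and 0, and LUM, another, 0 and 0 against 0.23 and 0.37. Of 8 fibroblast markers 3 were tested, with 1 higher and 2 lower in HCT116, 0 and 0 of them by at least 4-fold. The higher one was COL1A1, a collagen gene (5.85 and 8.09 against 4.77 and 5.35).

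Genes called at 4-fold in the same direction lay side by side at some loci. In the RefSeq order of 13547 tested genes, there were 42 runs of at least 3 neighbours with the same call. The longest held 7 genes of the HOXA cluster from HOXA5 to HOXA11, among them the antisense gene HOXA-AS4. Runs of 6 lay in the HOXB cluster from HOXB4 to HOXB8 and from GABRQ to CSAG3 around MAGEA3. A run of 5 lay in the beta-globin region, where HBE1, the embryonic globin, was 90.2 and 99.2 against 0.12 and 0.14 and the olfactory receptor gene OR51B5 114 and 124 against 0.12 and 0. KLK6, KLK7, KLK8 and KLK10 formed a run on the HCT116 side. CST4, CST1, CST2 and CST7 formed a run on the MDA-MB-231 side, as did GBP3, GBP1, GBP2 and GBP4, and GSTM2, GSTM1, GSTM3 and CSF1. Many of these neighbours are relatives in sequence, and no label gives the strand setting of the libraries, so neighbours and antisense genes may share reads.

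At the genes past 4-fold, the line difference was mostly carried over into the treated libraries, which are other samples of the same lines. Of the 753 genes at least 4-fold higher in HCT116 under IgG, 636 (84.5%) were called so again under IgG with H2O2 and 642 (85.3%) under anti-Hsp60N with H2O2, where 771 (5.52%) and 773 (5.54%) of all genes were called. Of the 936 at least 4-fold lower, 807 (86.2%) and 801 (85.6%) were called again, against 865 (6.2%) of all genes in each condition. The genes called in all 3 conditions were 607 (80.6%) and 780 (83.3%). The sign was opposite for 0 of the 753 genes in either condition, and for 1 and 2 of the 936. The median fold change of the higher genes was 2.85 under IgG, 2.76 under H2O2 and 2.73 under the antibody with H2O2, and of the lower genes -2.97, -2.82 and -2.83. The genes were chosen by the IgG values. A test of the difference itself called 2423 genes (17.4%) under H2O2 and 2966 (21.3%) under the antibody with H2O2, where the line difference was not of the same size as under IgG. RAB25 had a log2 fold change of 6.94 under IgG, 7.04 under H2O2 and 7.06 under the antibody with H2O2. In the same order VIM had -8.69, -8.40 and -8.50, and HSPD1 1.56, 1.27 and 1.42. Medians of some lists moved, and in both directions. The heat shock list had 0.94, 0.27 and 0.17 and the DNA replication list 0.84, 0.33 and 0.51. The list of serine and one-carbon synthesis had 1.05, 1.55 and 1.63.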

How the data were processed

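Total RNA of HCT116 and MDA-MB-231 cells was sequenced, 2 libraries per line under IgG, with 8 further libraries of treated cells of the same lines. The deposited values were TPM per gene symbol, made by the authors from their reads. Per the submitters' processing notes, bcl2fastq 2.20, STAR and RSEM were used with hg19; their order and the gene annotation are not stated there. TPM keeps no depth, so the sequencing depth is unknown. All 12 columns matched a library by its label.

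Genes with at least 1 TPM in at least 2 of 12 libraries were kept. On log2(TPM + 1), limma 3.58.1 (R 4.3.3, variance trend, two-sided) was fitted to 6 group means over 12 libraries, with 6 residual and 4.63 prior degrees of freedom, and Benjamini-Hochberg adjustment ran over 13956 genes. Tested on simulated data for this comparison over 13956 genes, it recovered 39 of 50 genes changed by a log2 of 0.5 and 49 of 50 changed by 2. There were 12 calls among 13756 unchanged genes. Most genes were unchanged there, whereas 82.8% were called in the data, so these 12 calls give no error rate for this comparison. The members and the 69 gene lists were chosen with earlier results of these data known. Named genes were the 15 highest and 15 lowest called fold changes with a mean of at least 5 TPM in 1 line and no overlap, up to 4 per list, and a fixed set of line markers; other list members and neighbours were named after their values were seen. Some genes that this rule names, and the counts of some lists, are not reported here. TIGAR and SUSD6 stand in the table under older symbols, KIAA0247 for SUSD6 and C12orf5 for TIGAR. RefSeq tables of another build (GRCh38.p14) gave only names, gene order and the windows before gene starts. Alternatives were other pseudocounts, filters, scalings, sample sets, a replicate block and leaving out each IgG library. Figures used matplotlib 3.10.9 in Python 3.11.15.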

Additional observations from a re-analysis of the deposited data

Results flagged for a closer look

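Among 37 genes with the largest line differences or among the line markers, the line difference changed with treatment by the interaction test of limma (adjusted p under 0.05, 2 libraries per group) at 7 under IgG with H2O2 (18.9%) and at 4 under anti-Hsp60N with H2O2 (10.8%). Over all genes tested the same test called 17.4% and 21.3%, so these shares are near or below the background and are no result about these genes as a set. The HCT116 minus MDA-MB-231 difference of CDKN2B grew by a log2 of 0.67 under IgG with H2O2 (adjusted p = 0.0095) and 0.78 under anti-Hsp60N with H2O2 (adjusted p = 0.00377). That of HBE1 grew by 0.80 (adjusted p = 0.00176) and 0.76 (adjusted p = 0.00193). EGFR, lower in HCT116 by a log2 of -0.75 under IgG, moved by 0.63 (adjusted p = 0.0172) and 0.90 (adjusted p = 0.00267), to -0.12 and 0.15. MSX1 moved by -0.46 (adjusted p = 0.0338) and -0.50 (adjusted p = 0.0206). CDKN2B and MSX1 were listed at 0 in all 6 MDA-MB-231 libraries, so their values are changes of log2(TPM + 1) within HCT116 and no fold between the lines. HBE1 was listed at 0 in 3 of the 6 and at 0.12 and 0.14 TPM under IgG, so its values too depend on the pseudocount of 1. The other 3 genes passed the test in 1 of the 2 treated conditions. S100A14 moved by 0.66, VIM by 0.28 and HSPD1 by -0.28, each under IgG with H2O2. With 2 libraries per group no library could be checked against the others of its group.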

How the results depend on the processing

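The counts of all called genes stayed within 1.5 times under every alternative run. The counts at 4-fold depended on how low values were treated. With a pseudocount of 0.1 they were 1320 higher and 1443 lower, with 5 they were 270 and 406, and with only genes at a mean of at least 5 TPM the lower count was 617, since a pseudocount shrinks the fold of low genes and a stricter filter removes them. Of the 1689 genes at 4-fold, 1623 were shared with median-of-ratios scaling and 1647 with quantile normalization. Leaving out each IgG library gave 5884 to 6226 genes higher and 4844 to 5127 lower, and 733 to 792 and 926 to 962 at 4-fold, with the lone library assumed to vary like the other groups. The replicate numbers were not taken to pair the samples, as the labels tie no number to a shared culture or batch. The deviations of same-numbered libraries of the lines under IgG correlated at -0.009. Within MDA-MB-231, those under IgG correlated at 0.104 with those under IgG with H2O2 and at 0.164 with those under anti-Hsp60N with H2O2. Within HCT116 the values were -0.127 and 0.055, and whether libraries are paired within a line is not known. Over all 15 pairs of groups in the fit the correlation ran from -0.127 to 0.172, and 3 pairs were over 0.1. With the replicate number as a block the counts were 6360, 5220, 755 and 936. In a fit of the 4 IgG libraries alone they were 6083, 4983, 755 and 936. Of the genes named in the text, sign changes were limited to small differences. Under median-of-ratios scaling they were COL6A1 (-0.0697), GPX1 (-0.115), GRHL3 (-0.0121), MSH6 (-0.106), PLAA (-0.0462), PRDX2 (-0.095) and SPINT2 (-0.0156). Leaving out each IgG library in turn gave a log2 fold change of -0.0605 to 0.183 for COL6A1, -0.0432 to 0.0782 for GPX1, -0.0408 to 0.0662 for GRHL3 and -0.0428 to 0.0917 for MSH6. Calls were lost under at least 1 alternative for BGLAP, CAAP1, CTNNB1, NFKB1, RPL21, SLC16A3, SPINT2 and XBP1. Calls were gained under at least 1 alternative for BCL2, IFITM3, IGFBP6, PRDX2, SOD2 and WWTR1. Depth is not known, so what counting error adds at low TPM could not be given.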

Other observations

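Gene groups not described above also differed by member. Caveolae, the membrane pits coated by caveolins and cavins, had 7 genes tested, of which 0 were higher and 7 lower in HCT116, 0 and 3 of them by at least 4-fold. The cavin genes PTRF (125 and 133 against 510.1 and 536) and SDPR (0 and 0 against 15.1 and 16.7) and the related PRKCDBP (21.3 and 23.2 against 126 and 134) were the ones past the stricter rule, SDPR being listed at 0 in HCT116, and CAV1, the main caveolin, was 299 and 304 against 441 and 498 TPM. In the insulin-like growth factor axis, of 14 genes, 5 were higher and 8 lower in HCT116, 1 and 4 of them by at least 4-fold. The binding proteins IGFBP1 (0 and 0 against 30.7 and 30.3) and IGFBP3 (3.2 and 1.59 against 38.7 and 38.2) were lower in HCT116 and the ligand gene IGF2 was higher (10.3 and 11.8 against 2.52 and 2.75), whereas IGFBP6 was not called (120.1 and 115 against 127 and 127), though it was called lower under median-of-ratios scaling.

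Of 16 genes of the BCL2 family, which set the threshold of apoptosis, 5 were higher and 9 lower in HCT116, 0 and 1 of them by at least 4-fold. That share of 6.25% at 4-fold was below the 12.1% of all genes tested, so the count is no result about the family. BCL2A1, a survival gene, was 0 and 0 against 21.3 and 18.3, BCL2L1, which encodes BCL-XL, 129 and 148 against 384 and 396, and BAK1, a pore-forming member, 43.8 and 50.9 against 111 and 104, while BCL2 itself was low in both lines and not called (1.98 and 1.53 against 2.12 and 2.51), though it was called lower under median-of-ratios scaling or without HCT116 replicate 1. All 8 called genes of 10 that write or erase DNA methylation were higher in HCT116, none by 4-fold, with DNMT3B at 24.7 and 25.5 against 8.44 and 9.53 and TET3 at 11.7 and 12.8 against 3.22 and 4.34. Of 6 metallothioneins tested, which bind zinc and copper, 5 were lower in HCT116, among them MT2A (3163 and 3027 against 4936 and 4858), and 1, MT1E, was higher (1065 and 1031 against 556 and 569). The noncoding RNA SNHG5 was 96.2 and 98.2 against 650.3 and 601.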
